A study of Mus musculus with 16 samples.

Results

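Expression of 7 genes of the mouse primitive streak and early mesoderm, T, Eomes, Mixl1, Evx1, Mesp1, Fgf8 and Wnt3, was examined across pluripotent stem cell cultures. The genes were chosen by name, and all 7 were found among the 34042 genes of the count table. Bulk RNA sequencing had been done on 16 libraries of total RNA, each 1 passage of 1 cell line. Formative stem cells (FS) were grown in A3XR medium and gave 6 libraries, from passages 10, 12 and 14 of line 5ar1 and passages 4, 5 and 12 of line 5ar3. Epiblast stem cells (EpiSCs) gave 3 libraries of line AF32 in AF medium, at passages 13, 14 and 15 (EpiSC_AF), and 3 of line AFX6 in AFX medium, at passages 5, 8 and 12 (EpiSC_AFX). The 4 libraries of embryonic stem cells (ES) came from passages 12, 13, 15 and 20 of line E14IV-C, kept in 2iL medium. The labels give no strain, sex or engineered allele for any line, and they do not spell out the letters of the media. In published use, 2iL joins inhibitors of MEK and GSK3 with the cytokine LIF, A stands for activin, F for FGF2, X for a tankyrase inhibitor that lowers Wnt signalling, and R for an inverse agonist of retinoic acid receptors. Outside FS each group is a single line, so line and medium cannot be told apart. All AF32 libraries were also of later passages than those of AFX6, so passage differs along with line and medium between the EpiSC groups. Between the FS lines passage differs in part along with line, as passages 4 and 5 come from 5ar3 alone and only passage 12 from both. The replicates are passages of a line, so p-values measure only the spread between these passages and may not cover that between independent derivations.

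The primitive streak is the region of the gastrulating embryo where epiblast cells leave the pluripotent layer and form mesoderm and definitive endoderm. Wnt3 from the posterior epiblast and visceral endoderm and Nodal signalling, which activin mimics in culture, switch on the T-box factors T (brachyury) and Eomes and the homeobox factor Mixl1 there. Fgf8 is a growth factor that streak cells need in order to migrate, Evx1 is a homeobox factor of the posterior streak, and Mesp1 is a basic helix-loop-helix factor of the earliest cardiac and cranial mesoderm. Wnt signalling acts through Tcf/Lef factors, Nodal signalling partly through Foxh1, and T and Eomes bind T-box motifs.

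The 250 bases before the RefSeq transcription start (build GRCm38.p6) are shown for the T-box genes, because these led the length-scaled levels in ES, FS and most EpiSC_AF libraries, as described further on. Capitals mark a match to the T-box motif, which is 14 bases before the start of T on the minus strand. The T window is chr17:8434173-8434422 and the Eomes window is chr9:118477939-118478188, both on the plus strand, written 5′ to 3′.
T: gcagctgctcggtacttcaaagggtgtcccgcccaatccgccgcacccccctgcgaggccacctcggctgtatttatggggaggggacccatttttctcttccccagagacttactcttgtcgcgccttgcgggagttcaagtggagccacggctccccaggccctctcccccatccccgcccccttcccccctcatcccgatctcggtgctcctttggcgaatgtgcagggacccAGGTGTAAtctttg
Eomes: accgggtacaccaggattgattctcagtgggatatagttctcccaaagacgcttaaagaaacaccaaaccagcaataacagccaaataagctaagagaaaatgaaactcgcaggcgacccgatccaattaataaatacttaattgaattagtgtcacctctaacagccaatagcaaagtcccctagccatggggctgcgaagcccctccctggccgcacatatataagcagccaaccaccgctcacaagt
The motifs searched on both strands were CTTTGAT (Tcf/Lef), TNACACCT (T-box) and AATNNACA (Foxh1). RefSeq windows were matched for 5 of the 7 genes (T, Eomes, Evx1, Mesp1 and Wnt3), and Mixl1 and Fgf8 had no entry. Of these exact motifs the T window held the T-box motif alone, and variants of the motifs were not searched. The Mesp1 window held CTTTGAT, 31 bases before its start, and no other motif. The Eomes, Evx1 and Wnt3 windows held none of the motifs. Among 32851 RefSeq windows of the same length, 3.21% held the Tcf/Lef motif, 2.68% the T-box motif and 10.9% the Foxh1 motif. No matched motif overlapped another.

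Levels are given as CPM, the counts of a gene per 1e+06 counts of its library, on edgeR's TMM scale, and fold changes on a log2 scale with standard errors (SE) from edgeR's quasi-likelihood fit to all libraries. A gene was called where its p, adjusted by Benjamini-Hochberg over the 18555 genes tested, was under 0.05. Of the 7 genes, 5 passed the low-count filter and were tested, while Evx1 and Mesp1 did not pass. Total counts were 22069338 to 33290250 per library, and 3 counts, the limit that a count of 0 allows, corresponded to 0.0956 to 0.207 CPM, which covers counting error only. The mitochondrial rRNA gene mt-Rnr2 took 9.96% to 38.1% of the counts, most in ES replicate 1 (passage 12). That library stood apart from the other ES libraries, with a chi-square per degree of freedom of 222 to 261 against them, where they differed from each other by 8.40 to 16.4. Without it the members called were as many in each comparison with ES, and T, highest in ES in that library, changed by -2.44 in FS over ES (edgeR adjusted p = 0.0131), 0.014 in EpiSC_AFX (edgeR adjusted p = 0.991) and 4.01 in EpiSC_AF, which was still called. The labelled identities were checked on marker lists. The 6 naive markers summed to 2211 to 3467 CPM in ES and to at most 12.7 CPM in any other library. The 5 formative or primed markers summed to 42.8 to 109 CPM in ES and to at least 982.9 CPM elsewhere. All 16 libraries expressed the pluripotency factors Pou5f1, Sox2 and Nanog, with a sum of 578.5 CPM or more. In bulk RNA, fewer cells of a type and less RNA per cell cannot be told apart, so each level below is an average over the culture.

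The EpiSC_AF group had the highest mean of all 7 genes. FS had high Eomes with little T, Mixl1 or Fgf8, EpiSC_AFX had intermediate mean Fgf8 and Mixl1 and a mean Wnt3 near that of EpiSC_AF, and ES had more T than FS but the lowest mean Eomes, Fgf8 and Wnt3. Evx1 and Mesp1 were near or below the counting limit in most libraries.

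**Figure D1:**
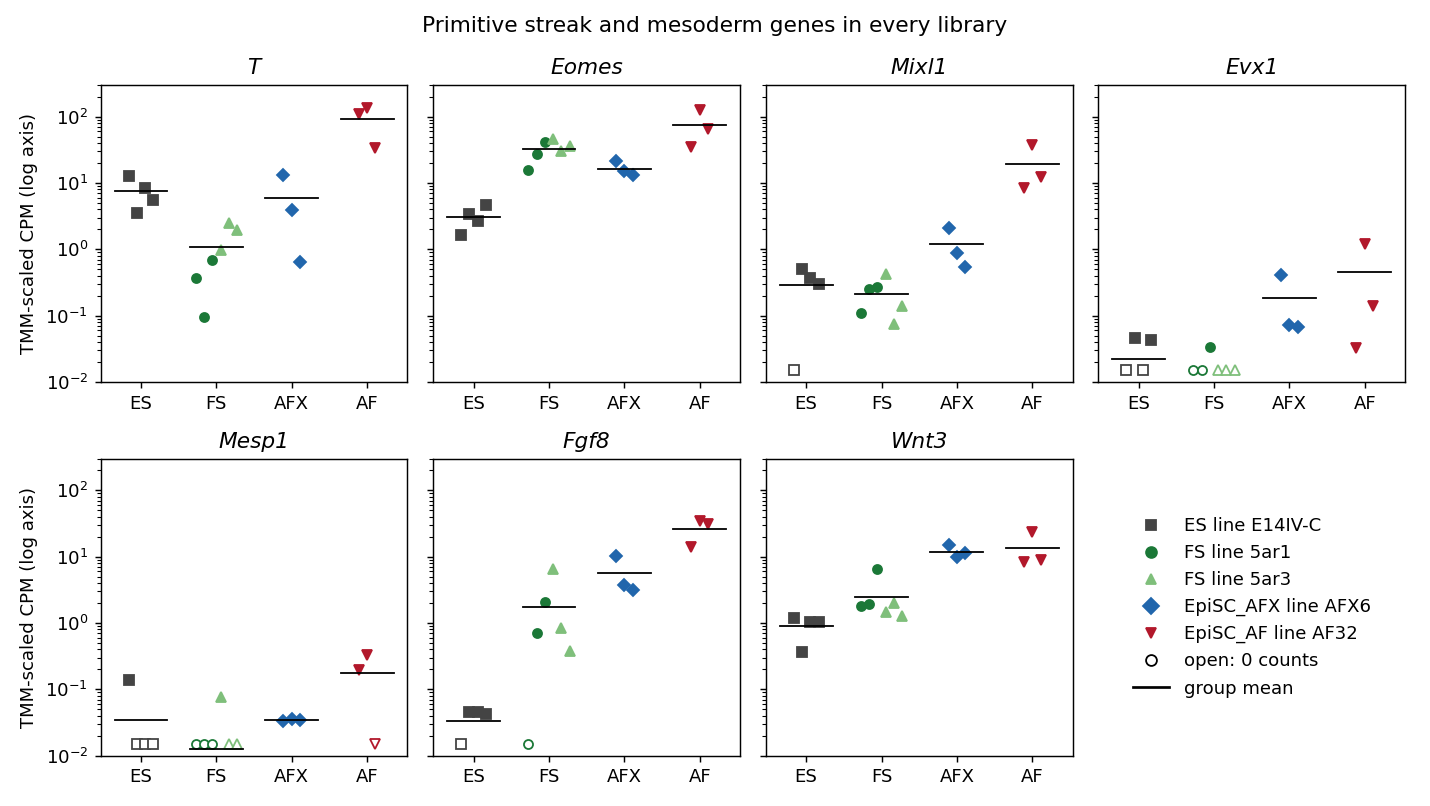
Level of each of the 7 genes in every library, in TMM-scaled CPM on a log axis, by group (ES, FS, EpiSC_AFX as AFX, EpiSC_AF as AF); symbols show the line, open symbols a count of 0 drawn at the lower edge, and bars the group mean. The 3 EpiSC_AF libraries sit above every FS library for T, Mixl1, Fgf8 and Wnt3, and the FS libraries sit above every ES library for Eomes.

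The ligand Wnt3 (chr11:103774150-103817957, plus strand, GRCm38) was at 1.17, 0.361, 1.05 and 1.02 CPM in ES at passages 12, 13, 15 and 20. In FS it ranged from 1.27 to 6.47 CPM with a median of 1.86, in EpiSC_AFX it was 9.93, 11.2 and 14.8 CPM at passages 5, 8 and 12, and in EpiSC_AF it was 8.33, 23.4 and 8.99 CPM at passages 13, 14 and 15. Every EpiSC library was above every FS library, and every FS library was above every ES library, while the EpiSC groups overlapped.
Means were 0.901 ± 0.366 CPM in ES (SD, n = 4), 2.48 ± 1.97 in FS (SD, n = 6), 11.96 ± 2.52 in EpiSC_AFX (SD, n = 3) and 13.6 ± 8.54 in EpiSC_AF (SD, n = 3). Wnt3 was 13.3-fold higher in EpiSC_AFX than in ES (log2 change 3.74, SE 0.56, edgeR adjusted p = 2.43e-05). It was 15.1-fold higher in EpiSC_AF than in ES (log2 change 3.92, SE 0.56, edgeR adjusted p = 1.45e-05).
FS was above ES by 1.48 (SE 0.50, edgeR adjusted p = 0.0156). FS was 4.82-fold below EpiSC_AFX (log2 change -2.26, SE 0.45, edgeR adjusted p = 0.00733) and 5.47-fold below EpiSC_AF (log2 change -2.44, SE 0.45, edgeR adjusted p = 0.00114). The difference between EpiSC_AFX and EpiSC_AF did not pass (log2 change -0.18, SE 0.53, edgeR adjusted p = 0.921).
The call against ES was lost with FS line 5ar3 alone (log2 change 0.83, edgeR adjusted p = 0.113) and without ES replicate 2 (1.20, edgeR adjusted p = 0.0587), and that against EpiSC_AFX with line 5ar1 alone (-1.83, edgeR adjusted p = 0.0594). Without EpiSC_AF replicate 2, at passage 14, the log2 changes of Wnt3 were 3.27 for EpiSC_AF over ES and -1.79 for FS over EpiSC_AF, and with line 5ar3 alone they were -2.91 for FS over EpiSC_AFX and -3.10 over EpiSC_AF, all still called.

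The ligand Fgf8 (chr19:45736798-45742915, minus strand) had 0 or 1 count in each ES library. In FS it ranged from 0 to 6.55 CPM with a median of 0.774, at 0, 0.701 and 2.10 CPM in line 5ar1 at passages 10, 12 and 14 and 0.847, 0.377 and 6.55 CPM in line 5ar3 at passages 4, 5 and 12. It was at 3.68, 3.19 and 10.2 CPM in EpiSC_AFX at passages 5, 8 and 12, and at 13.8, 34.4 and 31.5 CPM in EpiSC_AF at passages 13, 14 and 15. The EpiSC groups did not overlap with each other or with ES, and FS overlapped with ES at its low end and with EpiSC_AFX at its high end.
Because ES was at the counting limit, folds against it are lower bounds, taken against 3 counts per library. Fgf8 was at least 11.6-fold higher in FS than in ES (edgeR adjusted p = 0.0035), at least 37.4-fold higher in EpiSC_AFX (edgeR adjusted p = 5.19e-04) and at least 174.8-fold higher in EpiSC_AF (edgeR adjusted p = 3.23e-05).
FS was 15.1-fold below EpiSC_AF (log2 change -3.91, SE 0.79, edgeR adjusted p = 0.00281). The difference between FS and EpiSC_AFX did not pass (-1.68, SE 0.79, edgeR adjusted p = 0.272), nor did that between EpiSC_AFX and EpiSC_AF (-2.22, SE 0.95, edgeR adjusted p = 0.233), although the latter groups did not overlap.
FS replicate 4 (5ar3, passage 12) held the highest FS value, and without it the FS mean was at least 5.30-fold above ES (edgeR adjusted p = 0.00381), and the log2 change of Fgf8 was -2.80 against EpiSC_AFX, which was then called (edgeR adjusted p = 0.0206), and -5.02 against EpiSC_AF. Without EpiSC_AFX replicate 1 the EpiSC_AFX mean was at least 22.6-fold above ES (edgeR adjusted p = 0.0022) and the change of FS over EpiSC_AFX was -0.96 (edgeR adjusted p = 0.665), and line 5ar1 alone gave -4.83 for FS over EpiSC_AF.

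Brachyury, the product of T (chr17:8434423-8442496, plus strand), is the classic marker of the streak and its early mesoderm. T was at 12.6, 3.57, 8.34 and 5.57 CPM in ES at passages 12, 13, 15 and 20. In FS it ranged from 0.0956 to 2.51 CPM with a median of 0.833, in EpiSC_AFX it was 3.96, 0.644 and 12.99 CPM at passages 5, 8 and 12, and in EpiSC_AF it was 110.5, 136 and 33.3 CPM at passages 13, 14 and 15. EpiSC_AF stood above all other libraries and all ES libraries stood above all FS libraries, while EpiSC_AFX spanned the ES range and reached into that of FS.
Group means were 7.53 ± 3.93 CPM in ES (SD, n = 4), 1.09 ± 0.938 in FS (SD, n = 6), 5.86 ± 6.39 in EpiSC_AFX (SD, n = 3) and 93.3 ± 53.5 in EpiSC_AF (SD, n = 3). T was 6.88-fold lower in FS than in ES (log2 change -2.80, SE 0.73, edgeR adjusted p = 0.00334). It was 12.4-fold higher in EpiSC_AF than in ES (3.64, SE 0.82, edgeR adjusted p = 0.00124).
FS was 85.2-fold below EpiSC_AF (-6.44, SE 0.79, edgeR adjusted p = 5.15e-05), and EpiSC_AFX was 15.9-fold below it (-3.99, SE 0.93, edgeR adjusted p = 0.0208). EpiSC_AFX did not differ from ES by the test (-0.35, SE 0.81, edgeR adjusted p = 0.74), and the log2 change of -2.45 between FS and EpiSC_AFX did not pass (SE 0.77, edgeR adjusted p = 0.0799).
The EpiSC_AFX against EpiSC_AF call of T was lost with no low-count filter (edgeR adjusted p = 0.0808), with only those groups fitted (0.0939), and without EpiSC_AF replicate 1 (0.0635), EpiSC_AF replicate 2 (0.0886), EpiSC_AFX replicate 2 (0.118) or EpiSC_AFX replicate 3 (0.0685), and without EpiSC_AFX replicate 1 its log2 change was -5.34. FS against EpiSC_AFX became a call with a mean per line (edgeR adjusted p = 0.0258), with line 5ar1 alone (0.0441) and without EpiSC_AFX replicate 3 (0.0387), while without EpiSC_AFX replicate 1 it was -1.10 (0.558). Against ES the log2 change of T was -4.30 with line 5ar1 alone and -2.03 with line 5ar3 alone, and against EpiSC_AF it was -7.94 and -5.68.

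Eomes (chr9:118478212-118486132, plus strand) acts in the anterior streak and in definitive endoderm. It was at 1.66, 3.43, 2.64 and 4.72 CPM in ES at passages 12, 13, 15 and 20. In FS it ranged from 15.5 to 45.3 CPM with a median of 33.1, in EpiSC_AFX it was 14.9, 13.1 and 21.1 CPM at passages 5, 8 and 12, and in EpiSC_AF it was 35.3, 126 and 65.8 CPM at passages 13, 14 and 15. All FS and EpiSC libraries were above all ES libraries, and FS overlapped with both EpiSC groups.
Means were 3.11 ± 1.29 CPM in ES (SD, n = 4), 32.5 ± 10.7 in FS (SD, n = 6), 16.4 ± 4.195 in EpiSC_AFX (SD, n = 3) and 75.6 ± 46.0 in EpiSC_AF (SD, n = 3). Eomes was 10.4-fold higher in FS than in ES (log2 change 3.36, SE 0.39, edgeR adjusted p = 1.05e-06). It was 5.25-fold higher in EpiSC_AFX than in ES (2.37, SE 0.41, edgeR adjusted p = 1.2e-04) and 24.3-fold higher in EpiSC_AF (4.58, SE 0.44, edgeR adjusted p = 1.35e-07).
EpiSC_AFX was 4.62-fold below EpiSC_AF (-2.21, SE 0.43, edgeR adjusted p = 0.00657). FS was below EpiSC_AF by -1.22 (SE 0.35, edgeR adjusted p = 0.0222), with overlapping libraries, and the difference of 0.99 between FS and EpiSC_AFX did not pass (SE 0.38, edgeR adjusted p = 0.152).
The FS against EpiSC_AF call of Eomes rested on EpiSC_AF replicate 2, without which the log2 change was -0.64 (edgeR adjusted p = 0.291), and it was also lost with total-count scaling (0.0577), no low-count filter (0.0563), passage as a covariate (0.123) and line 5ar3 alone (0.083). The antisense gene Gm33460 overlaps Eomes exons in the GENCODE annotation, and the strand setting of the counting is not given in the sources used here.

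Mixl1 (chr1:180693043-180697034, minus strand), a paired-type homeobox factor of the streak, was at 0, 0.497, 0.364 and 0.298 CPM in ES at passages 12, 13, 15 and 20. In FS it ranged from 0.0737 to 0.419 CPM with a median of 0.198, in EpiSC_AFX it was 0.893, 0.542 and 2.13 CPM at passages 5, 8 and 12, and in EpiSC_AF it was 8.36, 36.9 and 12.3 CPM at passages 13, 14 and 15. ES and FS overlapped at 0 to 11 counts per library, and both EpiSC groups stood above them without overlap.
Means were 0.290 ± 0.210 CPM in ES (SD, n = 4), 0.212 ± 0.128 in FS (SD, n = 6), 1.19 ± 0.831 in EpiSC_AFX (SD, n = 3) and 19.2 ± 15.5 in EpiSC_AF (SD, n = 3). Mixl1 was 66.2-fold higher in EpiSC_AF than in ES (log2 change 5.94, SE 0.69, edgeR adjusted p = 1.31e-06) and 90.6-fold higher than in FS (FS over EpiSC_AF -6.46, SE 0.59, edgeR adjusted p = 2.15e-06). EpiSC_AFX was 16.2-fold below EpiSC_AF (-4.01, SE 0.67, edgeR adjusted p = 0.002).
EpiSC_AFX was above ES by 1.94 (SE 0.68, edgeR adjusted p = 0.0239), and FS was below EpiSC_AFX by -2.45 (SE 0.61, edgeR adjusted p = 0.0274). The difference of -0.51 between FS and ES did not pass (SE 0.69, edgeR adjusted p = 0.535).
Both of these smaller Mixl1 calls were lost without EpiSC_AFX replicate 1, at passage 12 (1.21 with edgeR adjusted p = 0.189 against ES, and -1.73 with 0.192 for FS), and the call of FS against EpiSC_AFX also with total-count scaling (0.052), either FS line alone (0.0933 and 0.0841), without FS replicate 6 (0.0522) and without EpiSC_AFX replicate 2 (0.0523). Without EpiSC_AF replicate 2 the Mixl1 log2 changes were 5.06 for EpiSC_AF over ES, -5.56 for FS over EpiSC_AF and -3.11 for EpiSC_AFX over EpiSC_AF, all still called, and without EpiSC_AFX replicate 1 the last was -4.73.

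Evx1 (chr6:52313498-52318378, plus strand) had 0, 1, 0 and 1 counts in ES at passages 12, 13, 15 and 20. In FS 5 libraries had 0 counts and 1 had 1 count, in EpiSC_AFX the counts were 2, 2 and 12 at passages 5, 8 and 12, and in EpiSC_AF they were 1, 37 and 4 at passages 13, 14 and 15. The 12 and 37 counts, 0.405 and 1.21 CPM, were the only ones above 4. With no low-count filter Evx1 was called lower in FS than in EpiSC_AF (edgeR adjusted p = 0.00113) and higher in EpiSC_AF than in ES (edgeR adjusted p = 0.00621). Evx1os, an antisense gene that overlaps Evx1 exons, had 4 to 73 counts in EpiSC_AF and 0 to 6 in the other groups, and the reads of the 2 genes cannot be told apart without the strand setting.
Mesp1 (chr7:79792241-79793788, minus strand) had 6, 10 and 0 counts in EpiSC_AF at passages 13, 14 and 15, 1 count in each EpiSC_AFX library, 2 counts in 1 ES and 1 FS library, and 0 in the rest. It was not detectable above the counting limit in ES, FS or EpiSC_AFX at this depth, and it was called in no comparison with no low-count filter.

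Counted over the genes, FS had 3 members called higher than ES, where 32.9% of all tested genes were called higher, and 1 called lower, where 29.9% of all were. EpiSC_AFX had 4 called higher than ES (28.5% of all tested genes were higher), and EpiSC_AF had all 5 tested members called higher (29.7% of all). These comparisons share the ES libraries and are given side by side. The median log2 change of the 5 tested members was 1.48 for FS, 2.37 for EpiSC_AFX and 4.58 for EpiSC_AF over ES, and it was the same with Fgf8 set at its bound, against medians over all tested genes of 0.04, 0.01 and 0.01.
Against the EpiSC groups the background was lower. FS had 2 members called lower than EpiSC_AFX, Mixl1 and Wnt3, where 2.10% of all tested genes were called lower. FS had all 5 tested members called lower than EpiSC_AF, against 8.81% of all. EpiSC_AFX had 3 members called lower than EpiSC_AF (T, Eomes and Mixl1), against 2.83% of all. Median log2 changes of the members were -2.26, -3.91 and -2.22 in these comparisons, and the medians over all tested genes were 0.04, 0.04 and 0. The count for FS against EpiSC_AFX was 1 without EpiSC_AFX replicate 1, EpiSC_AFX replicate 2 or FS replicate 6. It was 3 without FS replicate 4, EpiSC_AF replicate 1 or EpiSC_AFX replicate 3. Evx1 and Mesp1 are outside these counts, and Mixl1, at 0 to 11 counts per ES or FS library, passed the low-count filter through the EpiSC libraries. The genes were also chosen with earlier results of these data known, so the counts of members are description and not independent support.

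**Figure D2:**
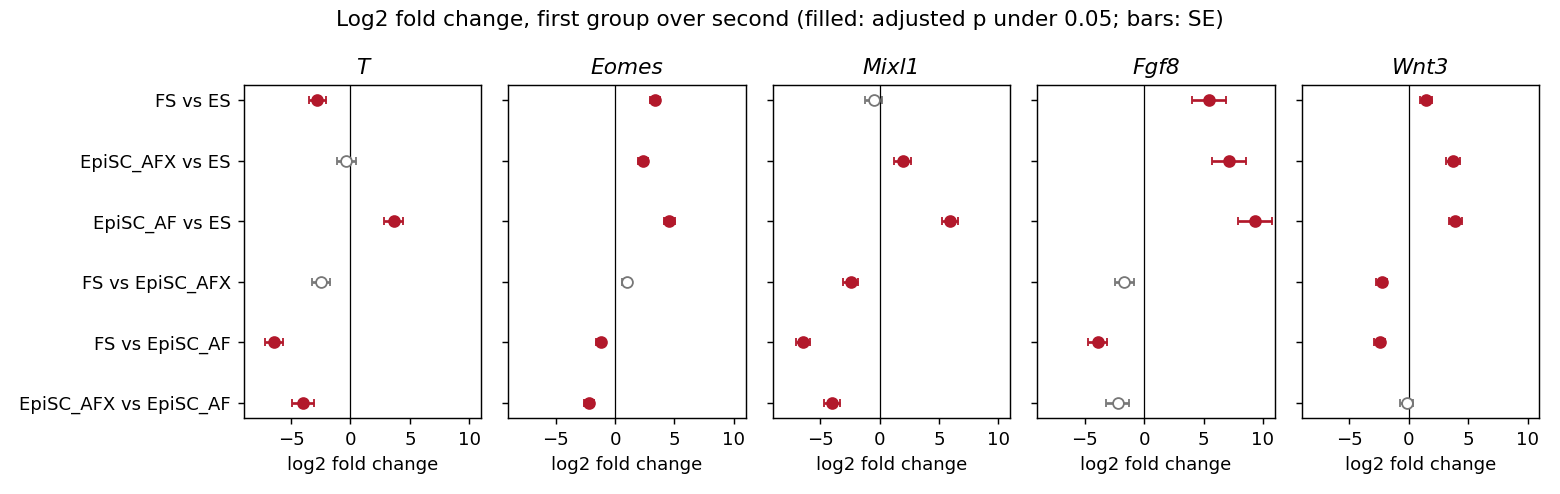
Log2 fold change with its SE for the 5 tested genes in the 6 comparisons between groups (first group over second); filled red points passed an adjusted p under 0.05 in edgeR's quasi-likelihood test and open grey points did not. All 5 points are filled and right of 0 for EpiSC_AF vs ES and filled and left of 0 for FS vs EpiSC_AF; fitted Fgf8 values against ES depend on the prior count because ES was at the counting limit.

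To compare genes with one another, CPM was divided by exonic length in kilobases. T had the highest such level of the 7 genes in 4 of 4 ES libraries, with a group mean of 3.25 CPM per kb against 0.749 for Eomes and 0.293 for Wnt3. Eomes had the highest level in 6 of 6 FS libraries, with a mean of 7.82 CPM per kb against 1.31 for Fgf8, 0.807 for Wnt3, 0.473 for T and 0.0923 for Mixl1. Fgf8 was above Wnt3 in FS replicate 4 alone, and without that library its FS mean was 0.596 CPM per kb. The order of the T-box genes was thus opposite in ES and FS.
In EpiSC_AF, T led in passages 13 and 14 and Fgf8 in passage 15, with means of 40.3 CPM per kb for T, 19.7 for Fgf8, 18.2 for Eomes, 8.37 for Mixl1 and 4.42 for Wnt3. In EpiSC_AFX, Eomes led at passage 5, Wnt3 at passage 8 and Fgf8 at passage 12, and the means of Fgf8, Eomes and Wnt3 were 4.20, 3.94 and 3.89 CPM per kb, with T at 2.53. The order of the leading genes in the EpiSC groups thus changed between libraries of a line.
The ratio of T to Eomes on the per-kilobase scale was 1.87 to 13.7 in ES, 0.00638 to 0.151 in FS, 0.0883 to 1.11 in EpiSC_AFX and 0.908 to 5.62 in EpiSC_AF. The ratio separated ES from FS without overlap, and the EpiSC_AF range overlapped with those of ES and EpiSC_AFX.

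**Figure D3:**
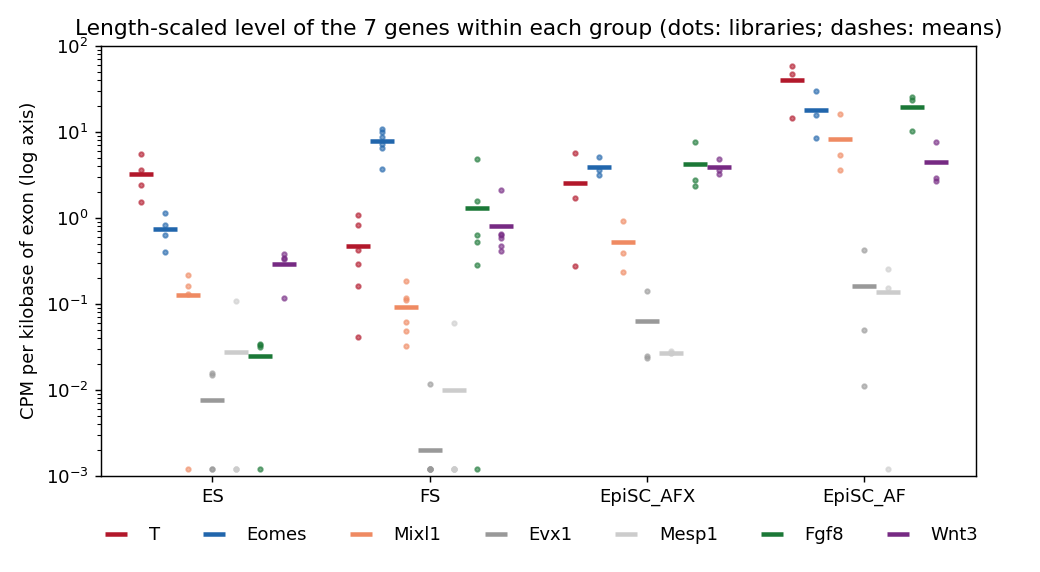
Level of each gene per kilobase of exon, in CPM per kb on a log axis, within each group; dots are libraries (values of 0 at the lower edge) and dashes are group means. T is the top gene in ES and Eomes the top gene in FS, with means of 3.25 and 7.82 CPM per kb.

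Markers of other cell types were summed in the same libraries. The 6 endoderm markers (Sox17, Foxa2, Cer1, Gata6, Gata4, Sox7) summed to 192 to 544.5 CPM in EpiSC_AF, with none of them at the counting limit, to 0.446 to 7.42 CPM in FS, with none at the limit, and to 0.903 to 2.13 CPM in ES, where Cer1 was at the limit. In EpiSC_AFX, where Sox7 was at the limit, the sum was 128.6 CPM at passage 12 and 4.21 and 1.25 CPM at passages 5 and 8. The passage 12 library, EpiSC_AFX replicate 1, also had the highest T, Eomes, Mixl1, Fgf8, Wnt3 and Evx1 of its line. The endoderm sum was thus highest in the group and in the AFX6 library with the highest T and Mixl1 levels, and its part in those differences was not tested. Over passages 13, 14 and 15 of AF32 the sum was 192, 544.5 and 319 CPM. Eomes, Mixl1, Fgf8, Wnt3 and Evx1 had the same order over these libraries, while T and Mesp1 were lowest at passage 15. In FS the sum was above the ES range in line 5ar3 only (5.49 to 7.42 CPM), and it was 0.446 to 1.19 CPM in 5ar1. Mean T was 1.81 CPM in 5ar3 and 0.381 CPM in 5ar1, below the 7.53 CPM of ES, and a link to the sum was not tested. The 6 fibroblast markers summed to 28.7 to 58.5 CPM in EpiSC_AF, 16.3 to 33.5 in FS, 11.1 to 19.3 in EpiSC_AFX and 0.542 to 1.11 in ES, and their part was not tested either. Lum was at the counting limit in FS and EpiSC_AFX, and Dcn, Postn and Lum in ES. The 4 blood and endothelium markers (Kdr, Tal1, Gata1, Pecam1) were highest in ES, with a sum of 112.7 to 129.8 CPM and Tal1 at the limit. They summed to 3.08 to 3.82 CPM in EpiSC_AF, 1.085 to 2.26 in EpiSC_AFX and 0.741 to 1.66 in FS, and their part was not tested.

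The FS lines were then compared. T was at 0.371, 0.0956 and 0.677 CPM in 5ar1 at passages 10, 12 and 14 and at 2.51, 1.93 and 0.990 CPM in 5ar3 at passages 4, 5 and 12, so the lines did not overlap. Line and passage cannot be fully told apart here, because passages 4 and 5 were sampled in 5ar3 alone. Wnt3 was at 1.78, 1.94 and 6.47 CPM in 5ar1 and 1.99, 1.27 and 1.45 CPM in 5ar3. By edgeR 0 of 5 tested members were called between the lines, where 3.88% of all tested genes were, and 2 had an unadjusted p under 0.05, T (log2 change of 5ar1 over 5ar3 -2.25, SE 1.03, edgeR adjusted p = 0.271) and Wnt3 (1.11, SE 0.51, edgeR adjusted p = 0.269). DESeq2 also called 0. The median change of the members was -0.42, against -0.01 over all genes. The endoderm markers summed to 0.446 to 1.19 CPM in 5ar1 and 5.49 to 7.42 CPM in 5ar3, and the fibroblast markers to 16.3 to 22.5 and 25.2 to 33.5 CPM, and their part in these values was not tested.

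Change with passage was fitted as 1 slope shared by the 5 lines. Eomes was at 15.5, 26.9 and 41.0 CPM in 5ar1 at passages 10, 12 and 14, and at 29.8, 36.3 and 45.3 CPM in 5ar3 at passages 4, 5 and 12. Fgf8 had its highest value at the last passage sampled in both FS lines and in AFX6, but not in AF32. By edgeR 0 of 5 tested members were called, where 0.00539% of all tested genes were called. An unadjusted p under 0.05 was reached by 2 members, Fgf8 (log2 slope per passage 0.38, SE 0.08, edgeR adjusted p = 0.232) and Eomes (0.11, SE 0.04, edgeR adjusted p = 0.559). DESeq2 also called 0. The slopes of Mixl1, Wnt3 and T were 0.18, 0.07 and 0.01, and the median slope of 0.11 compares with 0.00 over all genes.

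**Figure D4:**
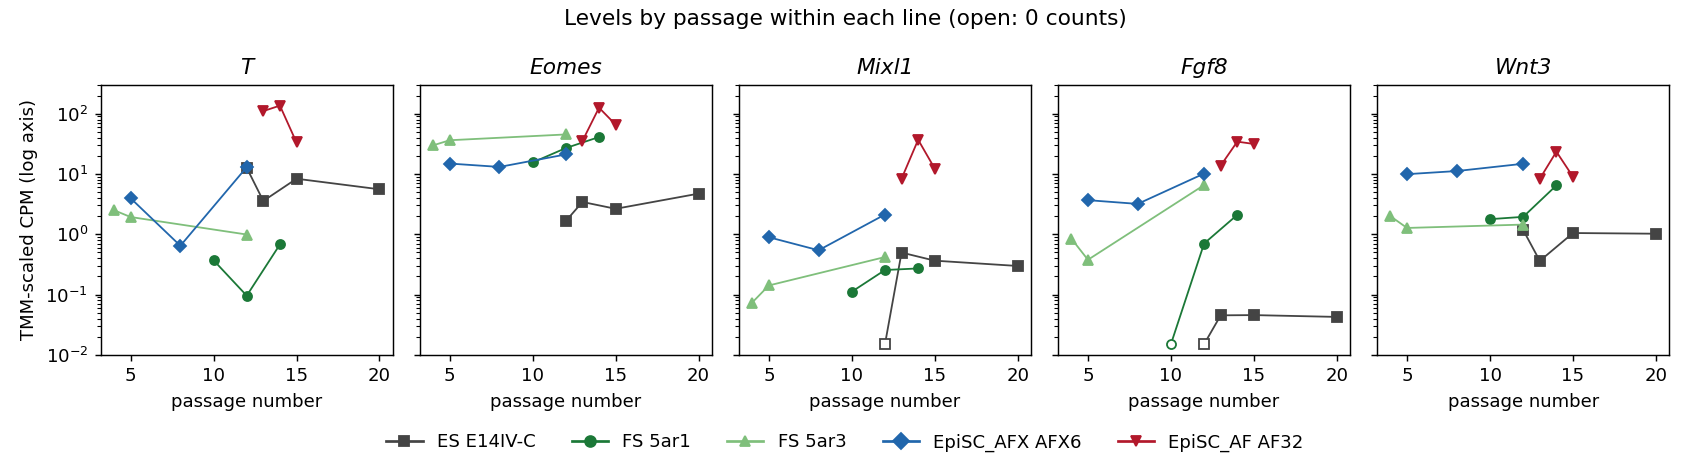
Level of the 5 tested genes by passage number, in TMM-scaled CPM on a log axis, with 1 line joining the libraries of each cell line; open symbols are 0 counts. Eomes is higher at each later passage in both FS lines, from 15.5 to 41.0 CPM in 5ar1 and from 29.8 to 45.3 CPM in 5ar3, while T in AF32 is lowest at passage 15 (33.3 CPM).

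Other genes of the pathway were read from 4 lists. Streak signals held 13 ligands and modulators, all tested, and factors of the streak and nascent mesoderm held 16 genes, of which 13 were tested. Later mesoderm held 8 genes, of which 5 were tested, and Wnt feedback and targets held 9, all tested.
In FS against EpiSC_AF, 9 of 13 signals were called lower and 0 higher, 8 of 13 factors lower and 1 higher (Mesp2), 4 of 5 later mesoderm genes lower and 0 higher, and 5 of 9 Wnt genes lower and 0 higher. Of all tested genes 8.81% were called lower and 7.84% higher. Mesp2 was low in both groups, at 2 to 17 counts per library in FS and 0 to 2 in EpiSC_AF. Median log2 changes of the lists were -2.76, -3.37, -3.37 and -1.05, against 0.04 over all genes.
Cfc1, a Nodal co-receptor, averaged 0.0938 ± 0.0912 CPM over the FS libraries (SD, n = 6) and 31.5 ± 13.3 CPM over EpiSC_AF (SD, n = 3), a log2 change of -8.42 (SE 1.06, edgeR adjusted p = 5.94e-05). Lhx1, a LIM homeobox factor of the anterior streak, was at 0.678 ± 0.7101 and 99.4 ± 54.5 CPM (-7.20, SE 1.04, edgeR adjusted p = 1.85e-04). Dkk1, a secreted Wnt antagonist, was at 0.472 ± 0.570 and 38.3 ± 23.0 CPM (-6.42, SE 1.08, edgeR adjusted p = 6.63e-04). Genes of Nodal reception, transcription and Wnt inhibition were thus among those called lower in FS.
Wnt8a, a Wnt ligand of the posterior epiblast, was 60.4-fold lower in FS than in EpiSC_AF, Kdr, a receptor of early vascular mesoderm, 14.3-fold lower, and Aplnr, a receptor of migrating mesoderm, 12.8-fold lower. Kdr averaged 0.0767 CPM in FS (0 to 6 counts per library), 0.307 in EpiSC_AFX and 1.10 in EpiSC_AF. Its highest mean was in ES, at 2.02 CPM. Lgr5 and Axin2, both Wnt targets, were 34.0-fold and 2.86-fold lower. Sp5, a Wnt target factor, was at the counting limit in FS and at least 49.6-fold lower.

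In EpiSC_AFX against EpiSC_AF, 1 of 13 signals (Wnt3a), 3 of 13 factors (Sp5, Sp8 and Nkx1-2), 2 of 5 later mesoderm genes (Aplnr and Pdgfra) and 1 of 9 Wnt genes (Axin2) were called lower, and 0 in any list higher. Of all tested genes 2.83% were called lower and 1.43% higher. Median log2 changes of the lists were -0.89, -2.57, -1.82 and -1.01, against 0 over all genes. Sp5 was 37.8-fold lower in EpiSC_AFX (edgeR adjusted p = 3.83e-04), Sp8 5.29-fold lower (edgeR adjusted p = 0.0079) and Axin2 4.14-fold lower (edgeR adjusted p = 0.00107). The number called over alternatives ran from 0 to 2 for the signals, 2 to 6 for the factors, 0 to 2 for later mesoderm and 1 to 3 for the Wnt genes, with the 6 reached without EpiSC_AFX replicate 1. The calls of Pdgfra, Aplnr and Nkx1-2 were lost in 16, 10 and 4 of 22 alternatives and that of Wnt3a in 7 of 20, while Sp5, Sp8 and Axin2 were called in all 22.
In FS against EpiSC_AFX, the 6 of 13 signals called lower were Nodal, its co-receptors Cfc1 and Tdgf1, its antagonists Lefty1 and Lefty2, and Wnt8a. Lefty2 averaged 0.741 ± 0.811 CPM over the FS libraries (SD, n = 6) and 27.5 ± 12.6 CPM over EpiSC_AFX (SD, n = 3), a log2 change of -5.18 (edgeR adjusted p = 1.66e-05), and Tdgf1 changed by -3.98 (edgeR adjusted p = 0.0031). The 3 of 13 factors called lower were Lhx1, Hand1 and Nkx1-2, with Mesp2 called higher, and Twist1 of later mesoderm and the Wnt target Lgr5 were also lower. Hand1 had 0 or 1 count per library in FS and 2 to 11 in EpiSC_AFX, and its call was lost in 3 of 24 alternatives. Mesp2 had 2 to 17 counts in FS and 0 in EpiSC_AFX, and its mean of 0.314 CPM in FS was near the 0.321 CPM of ES. Of all tested genes 2.10% were called lower and 2.89% higher. Median log2 changes of the lists were -1.87, -0.80, -0.42 and -0.15, against 0.04 over all genes.
The calls of Lhx1 (edgeR adjusted p = 0.0482) and Lgr5 (0.0469) were lost in 20 of 25 alternatives each, and that of Cfc1 in 2 of 24. Without EpiSC_AFX replicate 1, the library with high endoderm markers, the log2 changes of Cfc1, Lhx1 and Lgr5 were -1.21, 0.73 and -0.16 with edgeR adjusted p of 0.532, 0.764 and 0.945, and 3 signals, 2 factors and 0 Wnt genes were called. Over all alternatives the factors called ran from 0 to 5, with 0 when only the FS and EpiSC_AFX libraries were fitted.

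Against ES the lists split in both directions. In FS, 2 of 13 signals were called higher and 8 lower, 3 of 13 factors higher and 6 lower, 2 of 5 later mesoderm genes higher and 1 lower, and 3 of 9 Wnt genes higher and 4 lower, where 32.9% of all tested genes were higher and 29.9% lower. In EpiSC_AFX the counts were 4 higher and 5 lower, 3 and 6, 2 and 1, and 3 and 3, where 28.5% of all were higher and 26.2% lower. In EpiSC_AF they were 4 and 3, 4 and 4, 3 and 0, and 4 and 2, where 29.7% of all were higher and 27.0% lower. The factors called lower in FS, EpiSC_AFX and EpiSC_AF each included Tbx3, which is also one of the naive markers summed above.
The Wnt genes lower in FS than in ES were Axin2, Notum, Znrf3 and Tcf7, and those higher were Lef1, Nkd1 and Lgr5. Lgr5 averaged 0.491 CPM in FS with ES at the counting limit, and its call was lost in 6 of 24 alternatives. Axin2 averaged 65.9 ± 16.3 CPM over the ES libraries (SD, n = 4) and 5.72 ± 1.51 CPM over FS (SD, n = 6), 11.5-fold lower (edgeR adjusted p = 1.62e-09). Notum, a secreted Wnt inhibitor, was at 63.4 ± 10.3 CPM in ES and 302.6-fold lower in FS (edgeR adjusted p = 1.17e-11). Sp5 and Cdx1, a caudal homeobox factor, were at 23.6 ± 7.23 and 19.6 ± 4.41 CPM in ES and at the counting limit in FS, at least 209.8-fold and 174-fold lower.
Lefty2, a Nodal antagonist, was 198.2-fold lower in FS than in ES, and Tdgf1, a Nodal co-receptor that may share reads with a related pseudogene, was 23.4-fold lower. Between the FS lines, Nodal was 4.36-fold higher in 5ar1 than in 5ar3 (edgeR adjusted p = 0.0274) and Fgf4 6.06-fold higher (edgeR adjusted p = 2.47e-04), while Pdgfra, a receptor of paraxial mesoderm, was 6.05-fold lower (edgeR adjusted p = 0.0487) and Foxa2, a factor of the anterior streak and endoderm, 20.7-fold lower (edgeR adjusted p = 0.037). The Fgf4 call held in all 21 alternatives, and those of Nodal, Pdgfra and Foxa2 were lost in 6 of 21, 12 of 20 and 8 of 20, with edgeR adjusted p of up to 0.235, 0.191 and 0.138.

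The genes whose pattern over the 16 libraries lay nearest to each member were ranked by the root mean square difference of mean-centred log2 CPM, where a smaller value is a closer pattern. For T these were Hs3st3b1 (1.20) and Cfap206 (1.21), where T itself had an SD of 2.66 over the libraries. Hs3st3b1, like T, had its lowest group mean in FS (0.414 CPM) and its highest in EpiSC_AF (23.8 CPM), with ES at 10.4 CPM. For Eomes they were Rbfox1 (0.542) and Slc28a2 (0.565), for Mixl1 the node and notochord factor Noto (1.06) and RP24-267I21.3 (1.08), for Fgf8 Psmb8 (1.07) and Gbp2 (1.18), and for Wnt3 Slc7a7 (0.639) and Krt8-ps (0.641). Among the members the nearest pair was Eomes and Wnt3 (1.45) and the farthest T and Fgf8 (3.02). The 2 nearest genes were picked as the closest of all other tested genes. That they lay nearer than any member therefore does not tell whether the members vary together. Some were near the counting limit, as Slc28a2 and Noto averaged 0 CPM in ES.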

How the data were processed

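Values were the deposited raw read counts of each gene, and per the submitters' processing notes Trim Galore, TopHat2 2.1.0, featureCounts 1.5.0 and mm10 were used. Their options, the annotation release and the strand setting are not given in the sources used here. Per the labels' protocols the library kit was directional. A further 6 columns matched no sample and were not used. Groups follow the labels' culture condition. No libraries of a line agreed within sampling noise (chi-square per degree of freedom 8.40 to 261).

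Counts of 18555 genes kept by filterByExpr were scaled by TMM and fitted with edgeR 4.0.16 (R 4.3.3, limma 3.58.1) by robust quasi-likelihood, with a mean per group, or per line for the line and passage comparisons. The floor was 3 counts in every library of a group. Likeness used a prior count of 2. The procedure was tested on simulated counts. Alternatives were DESeq2 size factors, total counts, no filter, the DESeq2 1.42.0 Wald test, fewer groups or lines, a mean per line, passage as a covariate, and leaving out each library.

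The members and lists were chosen with earlier results of these data known. All 7 members were named. From each list, called genes with the 3 largest changes in a comparison were eligible to be given a change, and the 2 nearest genes per member were named. Other called genes were named only where the calls of a list were spelled out. Gene coordinates and exonic lengths came from GENCODE M21 on GRCm38, and promoter windows from RefSeq GRCm38.p6.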

Additional observations from a re-analysis of the deposited data

Results flagged for a closer look

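Among 14 combinations of a gene and a group of 4 or 6 libraries, 6 had a library set apart from the others by Dixon’s test at the 95% level. Chance flags about 1 in 20 groups, a rate that does not hold for 4 of the 6, where the other libraries were tied or nearly tied at 0 or 1 count. Fgf8 in FS replicate 4 (5ar3, passage 12) was at 6.55 CPM, from 172 counts, where the other FS libraries reached 2.10 CPM. Wnt3 in FS replicate 3 (5ar1, passage 14) was at 6.47 CPM, from 191 counts, where the others reached 1.99 CPM. The rest were at 2 counts or fewer. Evx1 in FS replicate 3 was at 0.0339 CPM, which is 1 count, against 0 in the others. Mesp1 was at 0.138 CPM in ES replicate 1 and 0.0761 CPM in FS replicate 4, 2 counts each, against 0 in the others. Fgf8 in ES replicate 1 was at 0 CPM, against 1 count in each of the other ES libraries.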

How the results depend on the processing

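Of 23 member changes that passed the test, 17 kept their direction and their call under every alternative run, none reversed, and those that lost a call are named in the report. The members called in FS against EpiSC_AFX were 1 with total-count scaling, with line 5ar1 alone and with line 5ar3 alone, and 1 to 3 on leaving out a library. Among the members, changes of sign occurred only in uncalled values. For Mixl1 between the FS lines these were -0.0056 (DESeq2 size factors), -0.0067 (DESeq2 test) and -0.42 to 0.997 on leaving out a library. T in EpiSC_AFX over ES was 0.028 with total counts and -1.70 to 0.18 on leaving out a library. With passage as a covariate, Mixl1 in FS over ES was 0.25 and Wnt3 in EpiSC_AFX over EpiSC_AF was 0.42. The same covariate kept these calls but moved Mixl1 to 2.90 and Wnt3 to 4.48 in EpiSC_AFX over ES, Mixl1 to -3.24 in EpiSC_AFX over EpiSC_AF, Fgf8 to -3.04 in FS over EpiSC_AF, and the fitted Fgf8 values over ES to 6.77 in FS and 8.86 in EpiSC_AFX. Leaving out a library gave -0.44 to 0.47 for Wnt3 in EpiSC_AFX over EpiSC_AF, -2.82 to 0.56 for Fgf8 between the FS lines, -0.15 to 0.068 for the passage slope of T, and -4.13 to 0.73 for Lhx1 in FS over EpiSC_AFX, which was a called value. The causes were not tested.

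Total-count scaling moved the median change of all genes to 0.40, 0.25 and 0.29 in FS, EpiSC_AFX and EpiSC_AF over ES, and the share of calls that were higher from 52.4%, 52.0% and 52.4% to 70.5%, 64.7% and 66.3%. For FS over EpiSC_AFX that share went from 57.9% to 72.7%.

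All genes called in FS against EpiSC_AFX numbered 927, and 1640 with DESeq2, 557 with only those groups, 1429 with a mean per line, 1765 with line 5ar3 alone and 380 to 1221 without a library, lowest without EpiSC_AFX replicate 3. EpiSC_AFX against EpiSC_AF gave 791, and 1390, 2276 with only those groups and 351 to 981, lowest without EpiSC_AFX replicate 2. FS against EpiSC_AF gave 3089 and 1799 to 3620, lowest without EpiSC_AF replicate 1. The FS lines gave 720, and 1258, 179 with FS libraries only and 289 to 1567, lowest without FS replicate 3. The passage slope gave 1, and 2 with total counts, 18 with no filter, 21 with DESeq2, 0 without ES libraries and 0 to 10 without a library.

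No paired analysis was possible because replicate numbers follow accession order. Depth limited Evx1 and Mesp1, which had 0 to 37 and 0 to 10 counts per library.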
